A study of Mus musculus with 9 samples.

Results

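The genes described here are 8 that build or anchor intermediate filaments in mouse retinal cells: vimentin (Vim), nestin (Nes), synemin (Synm), desmin (Des), the lamin genes Lmna, Lmnb1 and Lmnb2, and plectin (Plec). They were taken by symbol, and all 8 were found among the 16367 genes of the sorted-cell table and among the 17035 genes of the culture table. RNA was sequenced in 9 libraries of wild-type (WT) mice, 3 in each of 3 groups. The sham group was sorted from retinas of eyes given a corneal incision but no oil, and the ocular hypertension (OHT) group from retinas of mice given 1.2 µL of silicone oil in the anterior chamber of both eyes. Sorted cells were held on magnetic beads through the transporter GLAST, an antigen shared by Müller glia and astrocytes, and each library was made from 4 pooled retinas. The third group consisted of untreated primary Müller glia taken from C57BL/6J pups at postnatal day 8 to 10, then grown and passaged in DMEM with 10% fetal bovine serum. The labels give no age for the sorted animals and do not say whether libraries of a group came from separate cultures or mice, so p-values measure only the spread between these libraries.

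Intermediate filaments are rope-like polymers that give cells and nuclei mechanical strength. Vimentin, desmin, nestin and synemin belong to the cytoplasm, where nestin and synemin need a partner such as vimentin or desmin to polymerise. The lamins form the mesh under the nuclear envelope, and plectin ties filaments to each other, to actin and to adhesion sites. Müller glia carry vimentin throughout the retina, and stronger vimentin, nestin and GFAP staining is a textbook sign of gliosis, the reaction of glia to injury. The study's title places gliosis in ocular hypertension at its centre, so the first question was whether these transcripts differed between OHT and sham.

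The sorted libraries held 37.8 to 53.6 M (1e6) reads and the cultures 66.3 to 76.7 M. Sorted cells were mixed: the 12 markers of microglia and macrophages summed to 34477 to 52966 ppm (reads per 1e6 reads of the library) in sham and 47252 to 62694 ppm in OHT, against 105 to 165 ppm in the cultures. Of the 14 Müller glia markers, Apoe, also a microglial gene, made up 55.0% to 97.5% of the sum in the sorted libraries. The other 13 summed to 4649, 12139 and 6126 ppm in sham and 2521, 2744 and 5592 ppm in OHT, with overlap. The 14 rod markers summed to 2945, 27383 and 22404 ppm in sham and to 1033, 1213 and 3745 ppm in OHT, so rod reads were lower in OHT replicates 1 and 2 than in any sham library. In the cultures the 14 Müller glia markers summed to 383 to 735 ppm, and each of them was lower in all 3 cultures than in any sorted library; Rlbp1, the retinaldehyde binding protein that marks Müller glia, was at 1.60 to 2.84 ppm there and at 389 to 2090 ppm in the sorted libraries. The 6 fibroblast markers summed to 6071 to 8609 ppm in the cultures, with Col1a1 at 4121 to 6521 ppm, against at most 131 ppm in sorted cells. The cells of the cultures are therefore called cultured retinal cells below. The parts of these other cell types in the filament results were not tested.

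In OHT against sham, none of the 8 filament genes passed the adjusted threshold. Synm and Des had lower values in each OHT library than in each sham library, Lmnb1 was higher on average, Nes, Lmnb2 and Plec were lower on average with overlap, and Vim and Lmna differed by less than their spread. In RNA of a mixed sort, fewer cells of a type and less RNA per cell cannot be told apart. The test was limma (lmFit and eBayes) on log2(value + 1), fitted to the 14403 genes with a mean normalised count of at least 10, with Benjamini-Hochberg adjustment over all of them. All 8 genes passed this filter, although Des did so through the sham libraries alone, since it had no read in OHT, and so had to differ. With the threshold at 0.05 after adjustment, limma called none of the 8 and 0 of the 14403 genes, a background of 0%. Before adjustment, 1680 genes (11.7%) had a limma p under 0.05, and 907 of them (6.3% of all) were lower in OHT, with Synm and Des as the 2 filament genes. The quasi-likelihood test of edgeR, run on the recovered reads, gave 0 calls after adjustment and 1575 genes with a p under 0.05 before it. DESeq2 called 250 genes, 196 of them lower in OHT (1.36% of those tested), and Synm and Des were among these 196. Groups without overlap were common in these data: for 1322 genes (9.18%) every OHT value was below every sham value, and for 1334 (9.26%) every OHT value was above. Of the 8 filament genes 2, Synm and Des, were lower without overlap and 0 higher, where Des had to differ. The log2 difference was below 0 for 5 of the 8, with the sign of Des fixed by the filter, and the median of the 8 was -0.82. Over all genes tested 54.8% were below 0 and the median was -0.12. The panels of single libraries show how each gene was spread.

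**Figure D1:**
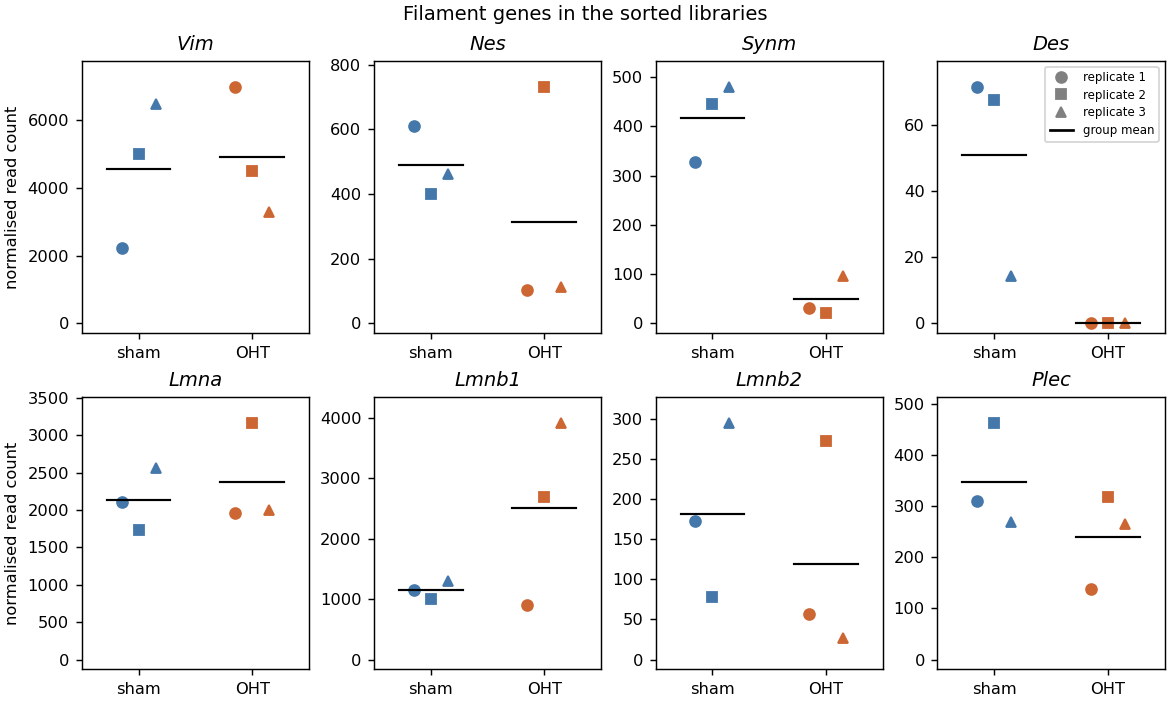
Normalised read counts (vertical axes, each from about 0) of the 8 filament genes in the 3 sham and 3 OHT libraries, with 1 point per library, the shape giving the replicate number and the bar the group mean. Synm and Des do not overlap between the groups, and Nes, Lmnb1 and Lmnb2 are spread more widely in OHT than in sham.

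Vim is the main cytoplasmic filament protein of Müller glia. Its normalised counts were 2221, 5011 and 6493 in sham replicates 1, 2 and 3, and 6976, 4501 and 3292 in OHT replicates 1, 2 and 3. The groups overlapped, with sham replicate 1 the lowest library and OHT replicate 1 the highest. Limma gave a log2 difference of 0.17 (SE 0.45, n = 3 against 3, adjusted p = 0.882). It was -0.28 without sham replicate 1, -0.11 without OHT replicate 1 and -0.13 after quantile normalization, so no direction held for Vim. As a level, Vim took 112 ± 49.6 ppm of the sham libraries and 98.4 ± 9.95 ppm of the OHT libraries (SD, n = 3 each).

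Nes encodes nestin, a filament protein of neural progenitors, newly formed vessels and reactive glia. It was at 611, 400.3 and 461 normalised counts in the 3 sham libraries and at 102, 730.2 and 112 in the 3 OHT libraries. OHT replicates 1 and 3 lay below every sham library, while OHT replicate 2 lay above all of them. The log2 difference of -1.24 (SE 0.80, limma adjusted p = 0.538) was -2.16 without OHT replicate 2 (limma adjusted p = 0.215, against 0.215 to 0.904 over all alternatives) and -0.75 without OHT replicate 1. In OHT replicate 2 the 9 proliferation markers, such as Mki67 and Top2a, summed to 380 ppm, against 22.9 to 98.9 ppm in the other 5 sorted libraries, and all 9 were detected in every library. Their part in the Nes value was not tested. Endothelial markers, a list of 11 genes, summed to 240 to 513 ppm in sham and 111 to 212 ppm in OHT, and their part was not tested either.

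Synm encodes synemin, a large filament protein that joins vimentin filaments in astrocytes and Müller glia and desmin filaments in muscle. Its normalised counts were 327, 445 and 479 in sham and 31.8, 20.6 and 97.0 in OHT. Every OHT library was thus below every sham library, with OHT replicate 3 the nearest. Limma gave a log2 difference of -3.33 (SE 0.87, adjusted p = 0.332), and in ppm the sham mean of 10.3 ± 1.68 was 8.80-fold the OHT mean of 1.17 ± 1.21 (SD, n = 3). The direction was kept in all 17 alternatives, at -3.96 to -2.64, and the adjusted p was 0.186 to 0.904 in the 16 of them other than DESeq2, which gave 0.0126. The 8 astrocyte markers, which include Gfap, summed to 51.1, 772 and 1304 ppm in the 3 sham libraries and to 71.1 to 131 ppm in OHT. Gfap made up most of this sum in sham replicates 2 and 3, at 569 and 1121 ppm. It was at 3.99 ppm in sham replicate 1 and at 47.0, 8.38 and 83.2 ppm in OHT. The astrocyte factor Pax2 had no read in sham replicate 1 or in OHT replicates 1 and 2. The part of astrocytes, or of the Müller glia and rod reads given above, in the Synm result was not tested.

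Des encodes desmin, the filament of muscle, vascular smooth muscle and pericytes. It was low, at 71.3, 67.3 and 14.4 normalised counts in sham, from 69, 73 and 15 reads, and at 0 reads in each OHT library, which allows up to 0.0560 to 0.0636 ppm (3 reads per library, counting error only). The sham mean of 1.29 ± 0.83 ppm (SD, n = 3) was 21.2-fold the mean of that floor. Sham replicate 3 lay nearer to the floor, at 0.337 ppm, so the fold does not bound the difference of each library. The fitted log2 difference of -5.40 (SE 1.61, limma adjusted p = 0.332) depends on the pseudocount, being -6.38 with 0.5 and -2.42 with 10, and is no measure of size. The adjusted p for Des was 0.0318 in DESeq2, 0.422 in edgeR and 0.129 to 0.904 over the alternatives other than DESeq2. The 10 mural markers summed to 132 to 275 ppm in sham and 9.95 to 64.2 ppm in OHT, where 7 or 8 of the 10 were detected against 9 or 10 in sham. Tagln had no read in any OHT library, nor in sham replicate 3, and was at most 0.0703 ppm in sham. Myh11 and Abcc9 had none in OHT replicates 2 and 3. Kcnj8 and Higd1b went the other way in OHT replicate 1, at 15.3 and 7.20 ppm against at most 5.19 and 6.40 ppm in sham. In every OHT library 3 of the 10 lay below all sham libraries, beside 9.18% of all genes tested. Their part in the Des result was not tested. The 4 measured skeletal and heart muscle markers summed to at most 5.49 ppm in any sorted library.

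Synm and Des were the members without overlap between the groups, although Des, with no read in OHT, had to differ. The 250 bases before the RefSeq transcription starts of Synm and Des are shown 5′ to 3′ on the gene's own strand. The build is GRCm38.p6, not the mm39 build of the submitters' processing notes. Synm is from chr7:67759743-67759992 on the minus strand and Des from chr1:75360042-75360291 on the plus strand. Capitals mark matches, on either strand, to short motifs that were searched for in both. One is the E-box, spelled CANNTG and bound by basic helix-loop-helix factors. Another is the GC box, spelled GGGCGG and bound by Sp1. The CCAAT box is bound by NF-Y. The TATA box was searched as TATAAA. The site of the stress-responsive factor AP-1 was searched as TGANTCA. No match overlapped another.
Synm: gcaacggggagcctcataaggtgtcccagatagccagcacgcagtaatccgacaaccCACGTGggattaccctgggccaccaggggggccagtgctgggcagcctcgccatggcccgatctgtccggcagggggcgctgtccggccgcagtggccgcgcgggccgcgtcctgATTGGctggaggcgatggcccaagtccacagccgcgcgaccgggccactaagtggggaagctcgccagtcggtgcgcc
Des: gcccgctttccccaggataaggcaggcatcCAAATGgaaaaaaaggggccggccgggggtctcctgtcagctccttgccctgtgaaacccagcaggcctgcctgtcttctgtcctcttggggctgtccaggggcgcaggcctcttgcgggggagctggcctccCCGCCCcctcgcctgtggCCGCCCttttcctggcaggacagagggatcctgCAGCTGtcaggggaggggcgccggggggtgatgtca

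Synm had 1 CCAAT match on the reverse strand, 78 to 74 bases before the start, and 1 E-box, CACGTG, 193 to 188 bases before it. Des had 2 GC boxes on the reverse strand, at 87 to 82 and 69 to 64 bases, and 2 E-boxes, CAAATG at 220 to 215 and CAGCTG at 36 to 31 bases. No TATA or AP-1 match lay in these 2 windows, and no motif was found in both windows other than the E-box. Over 32817 windows of the same kind the share with a match was 66.2% for the E-box, 33.8% for the CCAAT box, 32.7% for the GC box, 12.4% for the TATA box and 6.75% for AP-1. G and C made up 70.0% of the Synm window and 67.2% of the Des window. The bases that follow the RefSeq start were found in a GENCODE transcript for Synm but not for Des. Positions in the Des window, and the lack of a TATA match there, thus hold for the RefSeq start alone. The matches describe the letters only.

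The lamins differed among themselves. Lmna, which encodes the A-type lamins A and C, was at 2110, 1734 and 2562 normalised counts in sham and at 1957, 3160 and 2003 in OHT. OHT replicate 2 alone exceeded the sham libraries, and limma gave a log2 difference of 0.13 (SE 0.37, adjusted p = 0.889). It was -0.04 after quantile normalization, -0.01 without sham replicate 2 and -0.09 without OHT replicate 2, and 0.97 with a correction for transcript GC content and length that was added after seeing the data (limma adjusted p = 0.367, against 0.367 to 0.996 over all alternatives). Lmna thus had no steady direction.

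Lmnb1 encodes lamin B1, a farnesylated lamin that stays bound to the inner nuclear membrane. It was at 1144, 1004 and 1299 normalised counts in sham and at 909, 2692 and 3903 in OHT. The 3 sham libraries lay within 1.29-fold of each other, while the OHT libraries ranged 4.29-fold, with replicate 1 below all sham libraries and replicates 2 and 3 above them. Limma gave a log2 difference of 0.89 (SE 0.52, adjusted p = 0.507). It was above 0 in each of the 17 alternatives, at 0.45 to 1.50, where 1.50 was the value without OHT replicate 1 (limma adjusted p = 0.598, against 0.303 to 0.904 over all alternatives). The proliferation markers summed to 34.8, 380 and 22.9 ppm in OHT replicates 1, 2 and 3, with Cdk1 alone at 21.4 ppm in replicate 1. The part of these markers in the Lmnb1 values was not tested.

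Lmnb2, the gene of lamin B2, was at 173, 77.5 and 295 normalised counts in sham and at 56.7, 272 and 27.2 in OHT. As with Nes, OHT replicates 1 and 3 lay below all sham libraries and OHT replicate 2 did not. Limma gave a log2 difference of -1.06 (SE 1.04, adjusted p = 0.676). With 1 library left out it ranged from -1.98 without OHT replicate 2 to -0.34 without OHT replicate 3, and it was -0.31 after quantile normalization.

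Plec encodes plectin, the large linker protein. It was at 310, 461 and 269 normalised counts in sham and at 137, 317 and 264 in OHT, with OHT replicates 1 and 3 below all sham libraries. The log2 difference of -0.58 (SE 0.66, limma adjusted p = 0.714) was -0.02 after quantile normalization and turned to 0.72 after the correction for GC content and length (limma adjusted p = 0.618, against 0.527 to 0.990 over all alternatives). At 15.5 kb its transcript is the longest of the 8 and at 61.3% the richest in G and C.

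**Figure D2:**
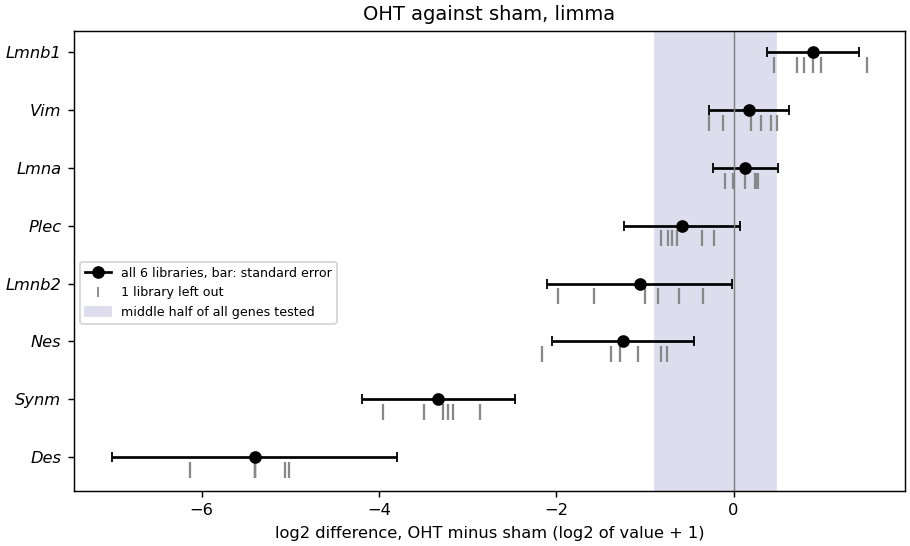
Log2 difference of OHT minus sham for the 8 filament genes (horizontal axis, on the log2(value + 1) scale), with points and standard error bars from limma on all 6 libraries, grey ticks for fits with 1 library left out, and a shaded band between the lower and upper quartiles of all genes tested. Synm and Des lie far below the band, Lmnb1 lies at 0.89 and Vim and Lmna have ticks on both sides of 0.

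Ratios of 2 genes within a library depend on how libraries were scaled only through the pseudocount of 1 added to each normalised count. The group labels were set against 5 such ratios in a two-sided exact permutation test. Its smallest possible p with 3 against 3 libraries is 0.1. With a pseudocount of 10 the OHT minus sham difference of Synm to Vim was -3.205, against -3.501 with 1. The log2 ratio of Synm to Vim was -3.34 ± 0.52 in sham and -6.84 ± 1.53 in OHT (SD, n = 3), with no overlap (exact permutation p = 0.1, 0.4 after adjustment over the 5 ratios). In each library it was -2.76, -3.49 and -3.76 in sham and -7.73, -7.70 and -5.07 in OHT. The ratio of Lmna to Lmnb1 was 0.88, 0.79 and 0.98 in sham and 1.10, 0.23 and -0.96 in OHT, with means of 0.88 ± 0.10 and 0.12 ± 1.04 (exact permutation p = 0.4). The OHT libraries lay on both sides of the narrow sham range. Lmnb2 to Lmnb1 (-2.85 ± 0.78 and -4.80 ± 2.03, exact permutation p = 0.2), Nes to Vim (-3.11 ± 1.08 and -4.52 ± 1.75, exact permutation p = 0.3) and Plec to Vim (-3.62 ± 0.89 and -4.37 ± 1.12, exact permutation p = 0.4) overlapped between the groups. After adjustment all 5 p-values were 0.4.

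Cultured retinal cells had a different filament profile. Levels across the 2 deposited tables, which were normalized separately, are given in ppm with no test. Vim was at 3319, 2652 and 2301 ppm in the 3 cultures, a mean of 2757 ± 517 (SD, n = 3) and 24.6-fold the sham mean. Lmna was at 1005, 1735 and 1895 ppm, a mean of 1545 ± 475 and 29.3-fold the sham mean of 52.8 ± 8.14. Plec was at 599.7, 707 and 691 ppm, a mean of 666 ± 57.9 and 76.9-fold the sham mean of 8.66 ± 2.78, the highest ratio of the 8. Nes was at 189, 213 and 184 ppm, 16.0-fold the sham mean of 12.2 ± 2.97. These 4 genes were higher in every culture than in any sorted library.

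The other 4 genes differed less from sham. Des was at 6.20 ± 1.30 ppm, 4.80-fold the sham mean. Of the 10 mural markers, 6 were higher in every culture than in any sorted library and 3 were lower. Acta2, the smooth muscle actin, at 8134 to 13250 ppm, made up most of their sum, while the pericyte marker Rgs5 was at 2.58 to 3.44 ppm against 102 to 226 ppm in sham. Lmnb2 was at 19.5 ± 3.80 ppm, 4.40-fold the sham mean of 4.44 ± 2.48, and both Des and Lmnb2 were above every sorted library in each culture. Lmnb1 went the other way, at 12.6 ± 0.19 ppm, with the sham mean of 28.4 ± 2.61 being 2.25-fold higher and all 6 sorted libraries above the cultures. Synm was at 2.05 ± 0.11 ppm, with the sham mean 5.02-fold higher, and the cultures lay within the OHT range of 0.466 to 2.57 ppm. Synm was thus the one member whose cultures overlapped with OHT and not with sham. The proliferation markers summed to 1038 to 1209 ppm in the cultures, and their part in these levels was not tested.

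**Figure D3:**
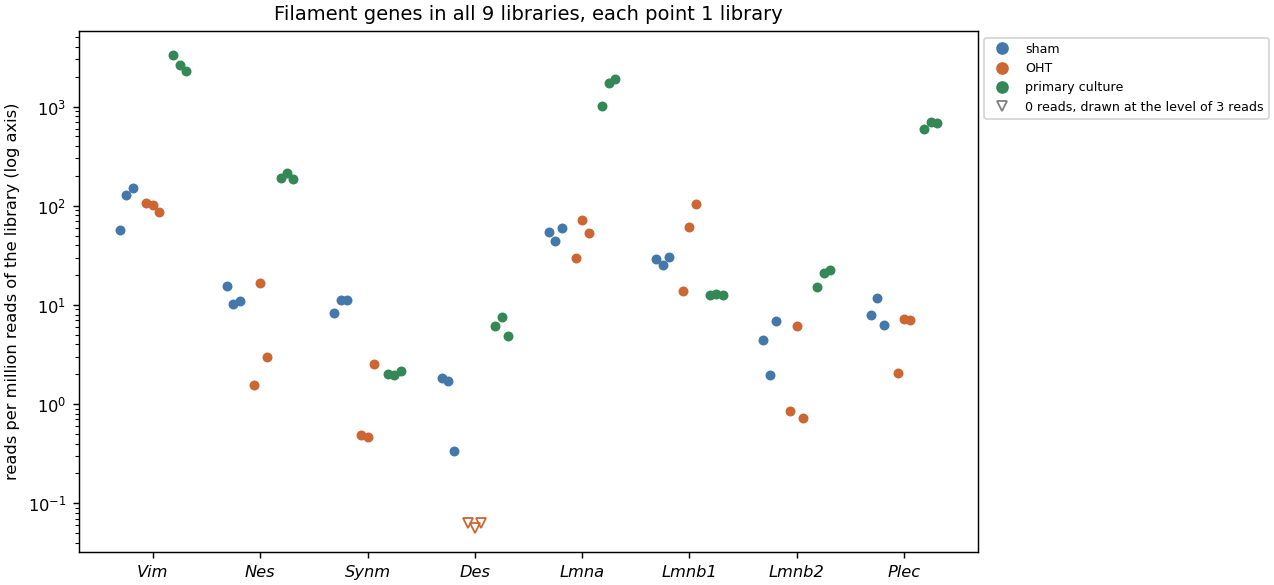
Level of the 8 filament genes in ppm of each library's reads (log axis), 1 point per library, for sham, OHT and the primary cultures; open triangles mark 0 reads and are drawn at the level of 3 reads. Vim, Nes, Des, Lmna, Lmnb2 and Plec are higher in every culture than in any sorted library, Lmnb1 is lower, and Synm in the cultures lies within the OHT range.

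Levels of different genes were compared per kb of the longest protein-coding transcript in GENCODE M21. In sham Vim led at 51.2 ± 22.6 ppm per kb, followed by Lmna at 16.7 ± 2.58, Lmnb1 at 10.0 ± 0.92 and Nes at 1.99 ± 0.49, and none of these neighbours overlapped. Synm (1.32 ± 0.21), Lmnb2 (1.26 ± 0.70), Plec (0.560 ± 0.180) and Des (0.426 ± 0.273) followed, each overlapping with the next. In OHT Vim was again first, at 44.9 ± 4.54 ppm per kb, while Lmnb1 (20.9 ± 15.8) and Lmna (16.3 ± 6.65) overlapped. Nes (1.15 ± 1.35) overlapped with Lmnb2 (0.732 ± 0.881), Lmnb2 with Plec (0.351 ± 0.187) and Plec with Synm (0.150 ± 0.155). Des was at 0 and did not overlap with Synm. In the cultures the order was Vim (1257 ± 236), Lmna (489 ± 150), Plec (43.1 ± 3.75), Nes (31.9 ± 2.53), Lmnb2 (5.53 ± 1.08), Lmnb1 (4.45 ± 0.07), Des (2.05 ± 0.43) and Synm (0.263 ± 0.014), where only Lmnb2 and Lmnb1 overlapped. Among Vim, Nes, Synm and Des, Vim held 86.0% to 95.4% of the reads per kb in sham, 94.4% to 99.4% in OHT and 97.0% to 97.9% in the cultures.

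The mix of lamins differed in spread between the sorted groups and in level in the cultures. Of the reads per kb of the 3 lamin genes, Lmna held 59.7%, 59.4% and 60.0% in sham replicates 1, 2 and 3. It held 64.9%, 49.4% and 31.5% in OHT replicates 1, 2 and 3, so 1 OHT library lay above and 2 lay below the sham libraries. In the cultures it held 97.3% to 98.2%. Lmnb1 held 33.8% to 38.2% in sham, 33.5% to 68.1% in OHT and 0.723% to 1.34% in the cultures, and Lmnb2 never exceeded 6.17% in any library.

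**Figure D4:**
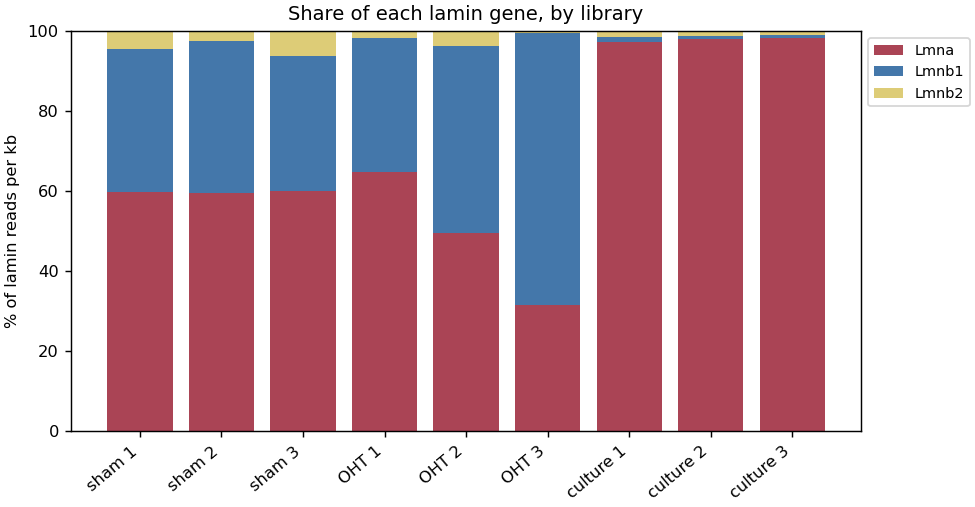
Share of Lmna, Lmnb1 and Lmnb2 in the reads per kb of the 3 lamin genes (percent, stacked to 100) in each of the 9 libraries. Lmna is close to 60% in the sham libraries, spread from 31.5% to 64.9% in OHT and at 97.3% or more in the cultures.

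The genes around the members were read through 5 lists. No gene of any list passed the adjusted threshold in limma. Over all genes tested, 9.18% were lower and 9.26% higher in OHT without overlap, and 11.7% had an unadjusted limma p under 0.05. List genes named below for either reason stand beside these shares. Counts below 0 describe the limma fit, where 54.8% of all genes tested were below 0 (median -0.12). With edgeR and DESeq2 they were 9 of 12 other cytoplasmic filaments and 5 of 7 linkers in both, and 5 and 4 of 6 maturation genes. Of 16 other cytoplasmic filament genes 12 were tested, 11 of them with a log2 difference below 0 (median -1.16). Sync, Krt7 and Krt19 passed the filter through sham alone, which favours a difference below 0. For Krt7, with no read in OHT, that sign was fixed. Krt19 had reads in sham replicate 1 alone among the sham libraries. Of the 9 genes other than these 3, 8 were below 0. After quantile normalization 9 of the 12 were below 0 (median -0.59). Ina, a neuronal filament, was the 1 gene lower in OHT without overlap (308, 217 and 85.2 normalised counts in sham, 55.3, 14.8 and 68.1 in OHT, limma adjusted p = 0.432). Those of the highest mean were Gfap, Nefl and Krt18. Gfap, the astrocyte filament, had a log2 difference of -1.85 (SE 1.68) and ranged from 156 to 47682 normalised counts among sham libraries. Nefl, the light neurofilament, had -0.40 (SE 0.99) and Krt18, a keratin, -1.35 (SE 0.93), with limma adjusted p of 0.653 for Gfap, 0.875 for Nefl and 0.560 for Krt18. The Nefl difference was above 0 in edgeR (0.69) and DESeq2 (0.81), while Gfap and Krt18 stayed below 0 in both. In the cultures Gfap was at 24.5, 44.5 and 124 ppm.

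All 7 tested genes of 10 plakins and other linkers had log2 differences below 0 in limma (median -0.62) and none separated the groups. Evpl and Ppl were among them through sham alone, which favours a difference below 0, and Jup and Cryab were above 0 in edgeR and DESeq2. Macf1 (-0.62, SE 0.36) and Dst (-0.40, SE 0.42), both giant linkers of the plectin family, and Cryab (-0.07, SE 0.56), a small heat shock protein that binds desmin and vimentin, had the highest means, with limma adjusted p between 0.504 and 0.966. Dst and Macf1 were at 273 and 205 ppm in the cultures and 107 and 170 ppm in sham, a smaller difference than that of Plec.

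Of 15 nuclear envelope partners of the lamins, 7 were above and 8 below 0 (median -0.08). Tor1aip1 and Tor1aip2, which activate torsin ATPases, were the 2 that were higher in OHT without overlap, with log2 differences of 0.53 (SE 0.33) and 0.66 (SE 0.38) and limma adjusted p of 0.526 and 0.509. Banf1, a chromatin-binding partner of LEM proteins, had 0.74 (SE 0.38, limma adjusted p = 0.468), and Tor1a, which encodes torsin-1A, had 0.35 (SE 0.43, limma adjusted p = 0.738). Syne2, which encodes nesprin-2, had the 1 unadjusted limma p under 0.05 in this list, at -1.78 (SE 0.77, limma adjusted p = 0.409).

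The 6 genes of the lamin maturation list all had log2 differences below 0 in limma (median -0.99), while Rce1 was at 0.02 in edgeR and 0.11 in DESeq2. Icmt, the methyltransferase that acts on farnesylated lamins, had the 1 unadjusted limma p under 0.05, with 332, 1304 and 1587 normalised counts in sham and 129, 351 and 342 in OHT. The groups overlapped slightly, and the fitted difference was -1.82 (SE 0.71, limma adjusted p = 0.385). Those of the highest mean were Fnta, a subunit of farnesyltransferase (-1.10, SE 0.83), Zmpste24, the protease that matures prelamin A (-0.15, SE 0.47), and Rce1, a CAAX protease (-0.15, SE 0.54). Fnta was at 3224, 4053 and 2945 normalised counts in sham and at 5086, 2740 and 277 in OHT. Its difference was -0.43 in edgeR and -0.33 in DESeq2. Narf was lower in OHT without overlap (-1.23, SE 0.65, limma adjusted p = 0.478).

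Of 13 genes for filament kinases, a kinase activator and a phosphatase subunit, 6 were above and 7 below 0 in limma (median -0.01), and 4 were below 0 in edgeR and in DESeq2 (medians 0.35 and 0.44). Cdk1, the mitotic kinase that phosphorylates lamins and vimentin, had the 1 unadjusted limma p under 0.05, at 2.14 (SE 0.89, limma adjusted p = 0.397), with 225, 62.7 and 525 normalised counts in sham and 1411, 1648 and 277 in OHT. Cdk1 is also 1 of the 9 proliferation markers. Aurkb and Plk1, also on both lists, had -1.75 (SE 1.62) and -1.22 (SE 1.72) in limma, but 1.10 and 1.55 in edgeR. In OHT replicate 1 Cdk1 was at 21.4 ppm of the 34.8 ppm summed over the 9 markers. Prkca, a protein kinase C, was lower without overlap (-0.91, SE 0.49, limma adjusted p = 0.487). Rock1 (0.72, SE 0.43), Pak2 (0.18, SE 0.34) and Pak1 (0.32, SE 0.38), which act on vimentin, had the highest means, with limma adjusted p between 0.514 and 0.836.

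**Figure D5:**
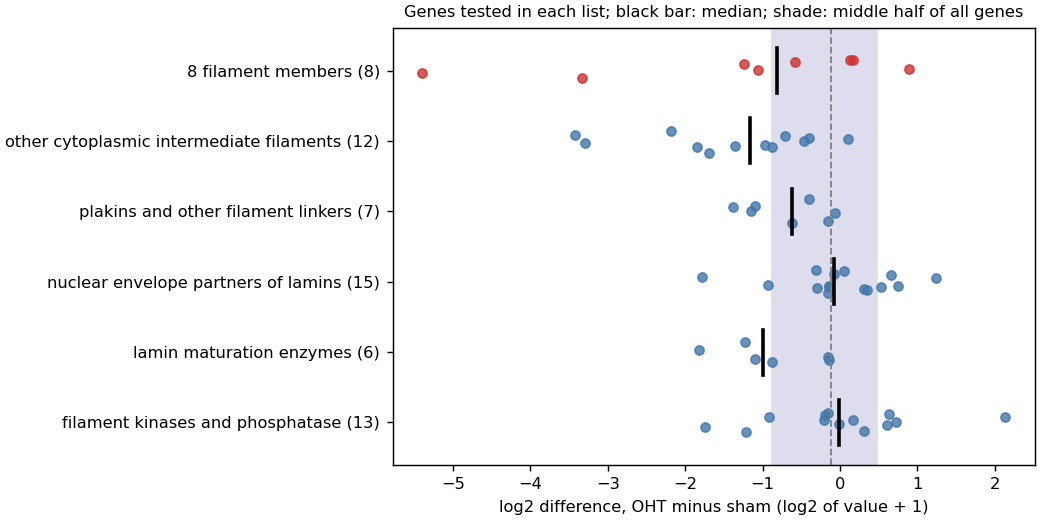
Log2 difference of OHT minus sham in limma (horizontal axis) for the 8 filament genes and for the tested genes of the 5 lists, 1 point per gene, with black bars for medians, a dashed line for the median of all genes (-0.12) and a band between their lower and upper quartiles. The other cytoplasmic filaments, the linkers and the maturation enzymes have medians of -1.16, -0.62 and -0.99, and the other 2 lists have medians near 0.

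The genes whose pattern over the 6 sorted libraries was most like that of each member were found by the root mean square difference of centred log2 values, among genes with a mean of at least 100. They describe these 6 libraries, and the differences were smallest for Lmna, the member of the smallest spread, and largest for Des. For Vim they were Recql, Pole2 and Hmgb3 (differences of 0.16, 0.16 and 0.17), for Nes they included Ap1ar and Gars (0.17 and 0.19) and for Synm they were Fsd1l, Cyp4f14 and Rgs20 (0.44, 0.44 and 0.47). For Des they included Abca13 and Slc1a4 (1.15 and 1.24), and Synm, at 1.49, was the nearest of the other members and 21st of all genes. For Lmna they were Lemd3, Kdelr1 and Rasa3 (0.08, 0.09 and 0.09), of which Lemd3 is a lamin-binding envelope protein on the list above. For Lmnb1 they were Irs2, Fmn1 and Taco1 (0.11, 0.15 and 0.26), for Lmnb2 Xxylt1, Prcc and Rab11fip1 (0.34, 0.34 and 0.39) and for Plec Zfp839, Ube3b and Pfkl (0.10, 0.11 and 0.12). The nearest member to Nes was Lmnb2 and to Lmnb2 was Nes, with a difference of 0.61; both were high in OHT replicate 2 and low in OHT replicates 1 and 3.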

How the data were processed

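The deposited signal is 1 normalised count per gene and library, in 2 tables made by the authors. Per the submitters' processing notes, bcl2fastq 2.20, Trim Galore 0.6.6, FastQC 0.11.9, STAR 2.7.1a and the build mm39 were used; they name no counting program, annotation or normalization tool, and the use of strand is not given here. Every value was a whole multiple of 1 step per column (100% of values, tolerance 0.05 reads), which gave reads and depth; the step of culture replicate 3 is too near 1 to show this on its own. The labels name no molecular identifiers, so intervals and floors from these amplified reads cover counting error only. No replicates agreed within sampling noise (chi-square per gene of 51.2 or more). OHT and sham were compared with limma 3.58.1 in R 4.3.3, with the cultures left out of the fit, and with edgeR 4.0.16 and DESeq2 1.42.0 on recovered reads. Code was tested on simulated data. Ratios used scipy 1.17.1. Per-gene lengths and GC content came from GENCODE M21 (93.9% of tested genes) and upstream sequences from RefSeq, where 6 of the 8 genes had a usable window. Members, lists and tests were chosen with earlier results of these data known. Named genes were the 8 members, the 3 list genes of the highest mean, and the 3 nearest patterns, some of which are not reported here; list genes named for no overlap or for an unadjusted p were chosen after their values were seen.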

Additional observations from a re-analysis of the deposited data

How the results depend on the processing

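The count of genes called in OHT against sham was 0 with all 6 libraries, 2 with a replicate block, 0 to 12 when 1 library was left out (12 without sham replicate 1 and 7 without sham replicate 3) and 250 with DESeq2. Pairing by replicate number was not seen. Deviations of same-numbered libraries had correlations across genes of 0.08, -0.02 and -0.05, and those of different numbers ranged from -0.07 to 0.0995. Such correlations cannot exclude that same-numbered libraries were handled together. No filament gene was called with the block. Quantile normalization moved the median of all genes from -0.12 to 0.01, and the added correction for GC content and length moved it to 0.17. Vim turned to -0.13 after quantile normalization and ranged from -0.28 to 0.49 with 1 library left out. Lmna turned to -0.037 after quantile normalization and ranged from -0.091 to 0.274 with 1 library left out. Plec turned to 0.72 after the GC and length correction. The causes were not tested. Des could not be fitted with a mean of at least 100. The log2 ratio of culture to sham, without the 20 genes of the highest mean in the total, was 4.32 for Vim (4.62 with the full total), 3.73 for Nes (4.00), -2.61 for Synm (-2.33), -1.45 for Lmnb1 (-1.17) and 5.99 for Plec (6.27). With median-of-ratios factors it was 3.75 for Nes, -2.59 for Synm, -1.43 for Lmnb1 and 6.02 for Plec. No culture ratio and no within-library ratio changed direction in the alternatives run. With 1 library left out the OHT minus sham difference of the within-library ratios ranged from -1.24 to -0.11 for Plec to Vim, -1.25 to -0.22 for Lmna to Lmnb1, -2.37 to -0.64 for Nes to Vim, -2.70 to -0.79 for Lmnb2 to Lmnb1 and -4.38 to -3.05 for Synm to Vim. The median over the 8 genes was -0.82 also with Des at its bound, and that of the other cytoplasmic filaments was -1.16 also with Krt7 at its bound. Neither median could move, since Des and Krt7 stayed below it.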
